A study of Mus musculus with 16 samples.

Results

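The genes described here are 10 well-known targets of p53, namely Cdkn1a, Phlda3, Bax, Ccng1, Bbc3, Trp53inp1, Sesn1, Mdm2, Gdf15 and Pmaip1. They were taken by gene symbol from the deposited table of 24411 genes, and all 10 were found in it. p53, the product of Trp53, is a transcription factor that is kept scarce by the ubiquitin ligase MDM2 and accumulates when DNA is damaged, for example by ionising radiation. It then binds response elements near its targets and raises their transcription, and these targets halt the cell cycle, promote cell death, limit growth signals and, through MDM2, end the response. Microglia are long-lived and survive the irradiation that clears the bone marrow of a recipient, whereas the cells that engraft the brain descend from marrow given to the recipient.

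RNA was sequenced from both macrophage populations of the brains of 8 bone marrow chimeras, wild-type mice on a C57BL/6J background whose recipients had been irradiated with 950 cGy before the transfer. Engrafted cells carried the allele CD45.1 and host microglia the allele CD45.2, and 10000 cells of each were sorted as CD11b+ cells with low CD45 that lacked Ly6C and Ly6G. Mice 1 to 4 were injected with 2.5 mg/kg lipopolysaccharide (LPS), a bacterial endotoxin, and were killed 12 h later, while mice 5 to 8 were not injected, which made 4 groups of 4 libraries. The labels give 3.5 or 9 months between transfer and challenge without assigning a time to each library. Every host cell had been irradiated in place and every engrafted cell was graft-derived, so radiation history and origin cannot be told apart. The libraries are bulk samples, in which fewer cells of a type and less RNA per cell cannot be told apart.

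Between 395283 and 1203597 reads per library fell on genes, and the engrafted LPS library of mouse 4 was the shallowest. Levels are given as CPM, the reads of a gene relative to the effective size of its library. A gene rose, fell, or was higher or lower where edgeR's quasi-likelihood test gave an adjusted p below 0.05. The summed CPM of 10 microglia markers ranged from 20457 to 23584 in host controls and from 10854 to 12783 in engrafted controls, and after LPS from 8218 to 9194 and from 3159 to 4320. The 7 markers of graft-derived macrophages summed to 57515 to 80320 CPM in engrafted controls and 3874 to 7481 CPM in host controls, and to 45490 to 90950 CPM against 2802 to 4495 CPM after LPS. LPS raised all 8 of a list of LPS response genes in both populations, among them Saa3, an acute phase protein, with a log2 fold change of 7.92 in engrafted cells and 4.59 in host microglia.

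The DNA around the starts of the target genes was read from the mm9 build, because p53 acts through a 10-base motif, the decamer of the p53 response element, which is its own reverse complement in consensus. A match lay within the 250 bases before or the 50 bases after the gene model start in 7 of the 10 targets, against 7.39% of 24341 gene models. The matches of 6 of these targets are shown in capitals, each with 10 bases on either side, on the strand of the gene, and that of Pmaip1, 174 bases upstream, is not shown.
Cdkn1a, chr17:29227863-29227892, + strand, 51 bases upstream: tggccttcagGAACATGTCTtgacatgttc
Cdkn1a, chr17:29227841-29227870, + strand, 73 bases upstream: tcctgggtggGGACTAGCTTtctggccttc
Trp53inp1, chr4:11083407-11083436, + strand, 171 bases upstream: tttgttgcccGGGCTTGTTTctgccccggg
Sesn1, chr10:41607062-41607091, + strand, 173 bases upstream, in an intron of a longer transcript: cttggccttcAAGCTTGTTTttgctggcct
Ccng1, chr11:40568954-40568983, - strand, 185 bases upstream: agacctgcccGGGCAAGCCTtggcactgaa
Mdm2, chr10:117147981-117148010, - strand, 186 bases upstream: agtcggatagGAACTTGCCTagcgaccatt
Bax, chr7:52722450-52722479, - strand, 201 bases upstream: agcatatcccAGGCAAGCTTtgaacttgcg

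A complete response element holds 2 abutting decamers. With the core letters intact and at most 1 mismatch elsewhere, such a 20-base element lay within 5000 bases of the start of 3 targets, against 1.34% of all gene models. These elements are shown with their core letters in capitals. The window and the number of mismatches were chosen after the matches had been seen, and a match is a description of letters, not of binding.
Cdkn1a, chr17:29227873-29227892, + strand, 51 bases upstream of the gene: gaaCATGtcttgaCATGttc
Ccng1, chr11:40568438-40568457, - strand, 331 bases downstream of the start, in an intron: acgCAAGcccgggCTAGtct
Gdf15, chr8:73155865-73155884, - strand, 350 bases upstream, in an annotated exon: tgaCTTGcctgaaCTTGcct

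The first question was whether the endotoxin challenge changed these genes in engrafted cells. Cdkn1a, Trp53inp1 and Bax rose and Sesn1 fell, so that 3 of the 9 targets tested rose and 1 fell. Of all 7609 genes tested, 19.4% rose and 19.3% fell, and the median log2 fold change was 0.27 over the 9 targets and -0.01 over all genes. The libraries of both groups did not overlap for 3 tested targets that were higher and 1 that was lower, against 18.3% and 16.7% of all genes. Trp53inp1 is in both counts of 3. It reached the level of the low-count filter in 4 challenged libraries but in 1 of 4 controls, so its inclusion leaned on the group where it was high. Among the 9 tested, Cdkn1a had the largest change, with a level 6.71-fold higher after LPS (Phlda3 was not tested).

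Cdkn1a encodes p21, the inhibitor of cyclin-dependent kinases that arrests the cell cycle (NM_001111099, chr17:29227924-29237667). It stood at 162, 118, 156 and 146 CPM in the engrafted cells of control mice 5, 6, 7 and 8, and at 1104, 1094, 847 and 976 CPM after LPS in mice 1, 2, 3 and 4. All 4 challenged libraries lay far above all 4 controls, and both groups were tight. The log2 fold change was 2.75 ± 0.19 (SE, n = 4 against 4, edgeR, adjusted p = 9.26e-10), and it stayed between 2.65 and 2.83 in all 14 alternative analyses.

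Phlda3 encodes a small lipid-binding protein that represses AKT signalling (NM_013750, chr1:137662662-137665711). Engrafted cells of control mice 5, 6, 7 and 8 gave 4, 1, 1 and 1 reads, or 4.03, 1.69, 1.64 and 1.80 CPM. After LPS, mice 1, 2, 3 and 4 gave 16, 8, 15 and 8 reads, or 17.9, 9.76, 19.5 and 22.4 CPM. The groups did not overlap, but the gene missed the filter on low counts and 3 controls held a single read. A two-sided exact permutation test gave p = 0.0286 (n = 4 against 4), the smallest that this design allows, and the fit without the filter gave a log2 fold change of 2.69 (edgeR, adjusted p = 0.000161).

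Bax, the pore-forming effector of mitochondrial cell death (NM_007527, chr7:52717065-52722268), stood at 189, 158, 161 and 162 CPM in engrafted controls and at 309, 273, 271 and 474 CPM after LPS. The challenged libraries lay above every control, with mouse 4 highest. After LPS the log2 fold change was 0.93 ± 0.21 (SE, n = 4 against 4, edgeR, adjusted p = 0.00124).

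Trp53inp1, which encodes a p53-inducible nuclear protein that supports p53 activity and autophagy (NM_021897, chr4:11083588-11101524), stood at 18.1, 13.5, 8.19 and 5.40 CPM in engrafted controls and at 42.5, 25.6, 70.3 and 30.8 CPM after LPS. The groups did not overlap, although the challenged libraries spread widely. Its log2 fold change was 1.78 ± 0.38 (SE, n = 4 against 4, edgeR, adjusted p = 0.00102), and all 4 challenged libraries but 1 of 4 controls reached the level of the low-count filter.

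Sesn1 encodes Sestrin 1, a stress-induced inhibitor of the growth kinase mTORC1 (NM_001013370, chr10:41607245-41628242), and it moved the other way. Its level was 334, 388, 341 and 284 CPM in engrafted controls and 138, 134, 142 and 126 CPM after LPS. Every challenged library lay below every control, and the challenged libraries were nearly equal. Its log2 fold change was -1.36 ± 0.17 (SE, n = 4 against 4, edgeR, adjusted p = 3.75e-06), which is a 2.56-fold fall.

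The other 5 targets did not pass the test in engrafted cells. Ccng1, which encodes cyclin G1 (NM_009831, chr11:40562054-40568788), stood at 35.3, 16.9, 14.7 and 30.6 CPM in controls and at 47.0, 29.3, 42.9 and 50.5 CPM after LPS, overlapping groups with a log2 fold change of 0.68 (edgeR, adjusted p = 0.0827). Without control mouse 5 or without challenged mouse 2, Ccng1 and Phlda3 both passed and 5 targets rose. The BH3-only death genes Bbc3, which encodes PUMA (NM_133234, chr7:16894932-16903683), and Pmaip1, which encodes NOXA (NM_021451, chr18:66618258-66625212), had log2 fold changes of 0.27 (95% interval -0.35 to 0.89) and 0.24 (-0.31 to 0.79). Mdm2, the feedback inhibitor of p53 (NM_010786, chr10:117125931-117147814), had a log2 fold change of -0.18 (-0.54 to 0.18). Gdf15, a secreted stress cytokine (NM_011819, chr8:73153293-73155534), was at -0.64 (-1.53 to 0.26), with 1 control, mouse 5, at 64.5 CPM and the other controls at 11.5 to 20.2 CPM.

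**Figure D1:**
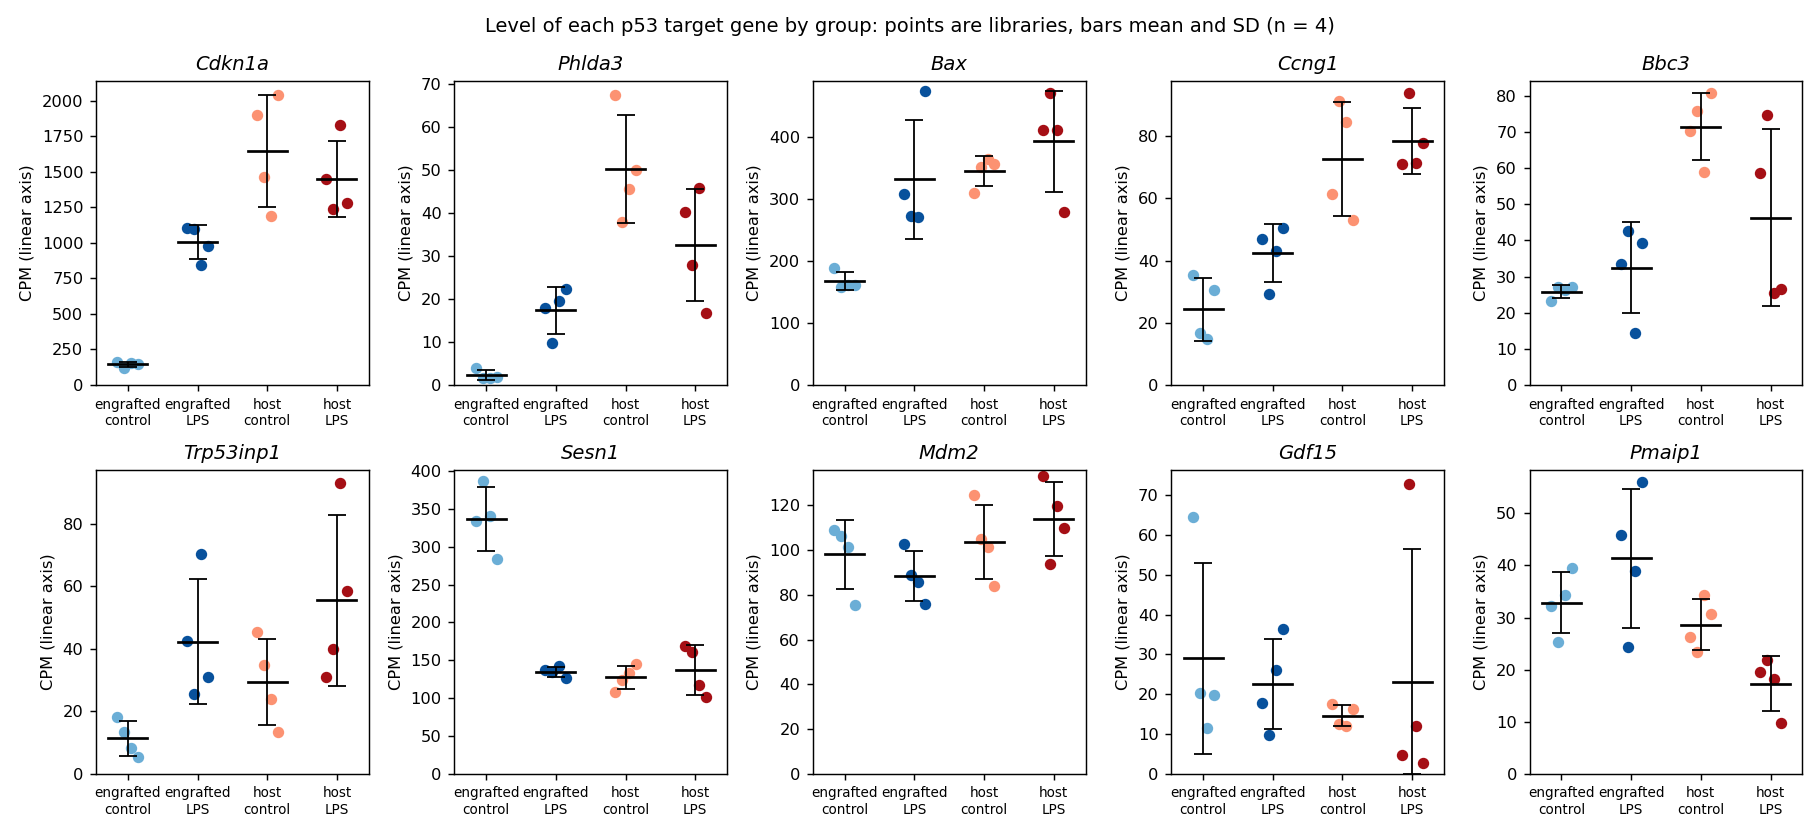
Level of each of the 10 targets in CPM on a linear axis that starts at 0, by group; points are libraries and bars the mean with the SD (n = 4), the lower bar stopping at 0. In engrafted cells Cdkn1a lies between 118 and 162 CPM in controls and between 847 and 1104 CPM after LPS, while both host groups lie between 1191 and 2042 CPM.

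Markers of monocytes moved with this comparison. All 5 monocyte markers of the list rose in engrafted cells, and their sum went from 65.7 to 102 CPM in controls to 877 to 1902 CPM after LPS. Ly6c2, which encodes the Ly6C antigen, had a mean of 30.1 CPM in controls and 716 CPM after LPS, although the cells had been sorted as lacking Ly6C. Ccr2, the chemokine receptor of classical monocytes, fell from a mean of 155 to 46.2 CPM, a log2 fold change of -1.78 (edgeR, adjusted p = 5.52e-05). In host microglia the same 5 markers summed to 3.99 to 19.4 CPM in controls, with Chil3 at 0, and to 15.95 to 45.9 CPM after LPS. Across the challenged engrafted libraries of mice 1, 2, 3 and 4 the monocyte sum was 1902, 1460, 1391 and 877 CPM, beside Cdkn1a at 1104, 1094, 847 and 976 CPM and Bax at 309, 273, 271 and 474 CPM. Whether monocytes were among the sorted cells, and what part they would have in the response of the p53 targets, was not tested.

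The same challenge was then examined in host microglia. Trp53inp1 rose and Pmaip1 fell, so that 1 of 10 targets moved in each direction, while 19.2% of all 8238 genes tested rose and 20.5% fell. Neither passed a 2-fold threshold as well, and both calls depended on single libraries. For 1 target, Pmaip1, the libraries did not overlap and were lower, and for 0 they were higher, against 18.6% and 17.1% of all genes. The median log2 fold change was 0.09 over the 10 targets and 0.01 over all genes.

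Cdkn1a in host microglia stood at 1899, 1462, 1191 and 2042 CPM in control mice 5, 6, 7 and 8 and at 1447, 1237, 1829 and 1284 CPM after LPS in mice 1, 2, 3 and 4. The groups overlapped across most of their range. The log2 fold change was -0.20 (95% interval -0.54 to 0.14, edgeR, adjusted p = 0.388), so that a rise of the size seen in engrafted cells lay outside the interval.

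Trp53inp1 stood at 45.4, 35.0, 23.9 and 13.3 CPM in host controls and at 31.0, 39.9, 93.0 and 58.4 CPM after LPS. The groups overlapped, and mouse 3 was highest. Its log2 fold change was 0.94 ± 0.32 (SE, n = 4 against 4, edgeR, adjusted p = 0.0235), and the call was lost without control mouse 7 or 8 or without challenged mouse 3, with an adjusted p of up to 0.153.

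Pmaip1 stood at 26.4, 23.3, 34.3 and 30.6 CPM in host controls and at 19.5, 21.9, 18.1 and 9.74 CPM after LPS. Every challenged library lay below every control, by little, on 7 to 22 reads against 18 to 43. With LPS the log2 fold change was -0.72 ± 0.26 (SE, n = 4 against 4, edgeR, adjusted p = 0.0351), and the gene passed in 3 of the 8 analyses that left out 1 library, where the adjusted p reached 0.115 without control mouse 7.

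Phlda3 stood at 67.3, 37.9, 45.5 and 50.0 CPM in host controls and at 40.1, 27.9, 45.9 and 16.7 CPM after LPS, and the groups overlapped. Its log2 fold change was -0.59 (95% interval -1.09 to -0.09, edgeR, adjusted p = 0.0678). Bbc3 stood at 70.3, 75.8, 59.0 and 80.7 CPM in host controls and at 58.5, 74.8, 25.4 and 26.4 CPM after LPS, so that mice 3 and 4 were low and mice 1 and 2 within or next to the control range. Its log2 fold change was -0.60 (-1.11 to -0.09, edgeR, adjusted p = 0.0711). Bax, Ccng1, Sesn1 and Mdm2 had log2 fold changes between 0.09 and 0.17, with intervals that spanned 0. Gdf15 was at 2.78, 4.59 and 12.1 CPM in 3 challenged libraries and at 72.8 CPM in that of mouse 2, and its log2 fold change of 0.77 became -1.09 without mouse 2.

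**Figure D2:**
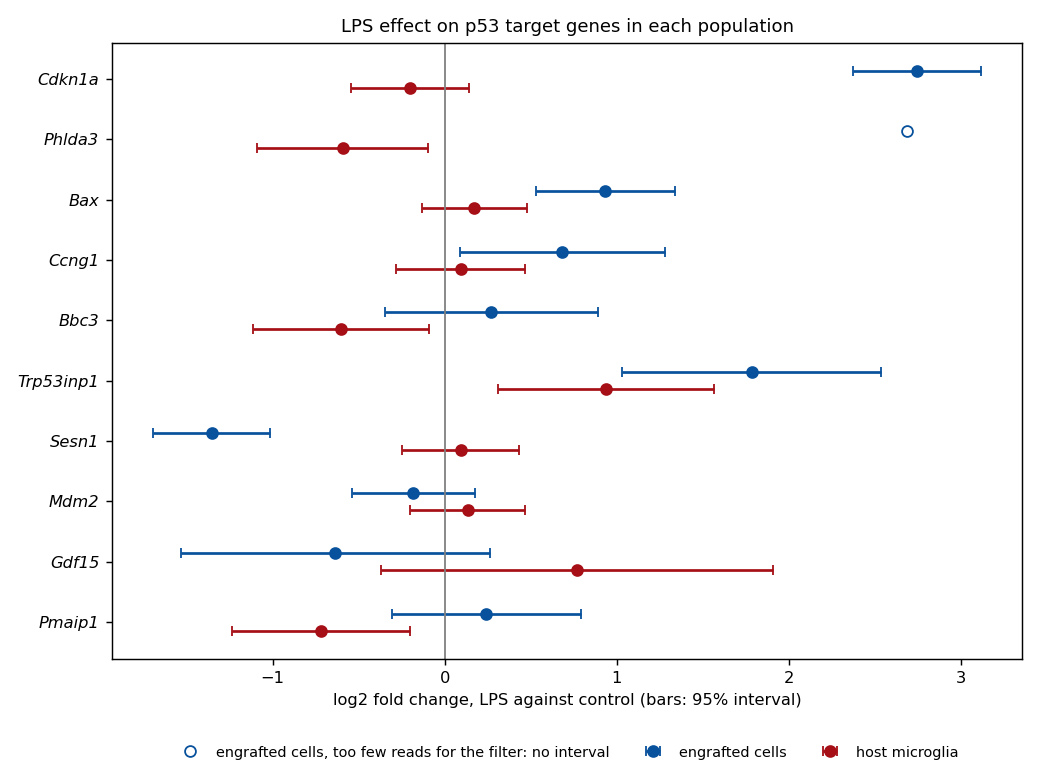
Log2 fold change of LPS against control for the 10 targets in engrafted cells (blue) and host microglia (red), with 95% intervals; the open point is Phlda3 in engrafted cells, from the fit without the filter on low counts. Cdkn1a at 2.75 and Sesn1 at -1.36 in engrafted cells lie well apart from their host values of -0.20 and 0.09.

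Whether a target responded differently in the 2 populations was tested as the interaction of population and challenge over all 16 libraries. The log2 LPS effect was higher in engrafted cells for Cdkn1a and Phlda3 and lower for Sesn1, which fell there, so that it differed for 2 of 10 targets in one direction and 1 in the other, against 2.97% and 2.90% of 8847 genes. The difference for Cdkn1a was 2.94 ± 0.26 on the log2 scale (SE, 16 libraries, edgeR, adjusted p = 1.81e-08), the fourth smallest p of all genes tested. For Phlda3 it was 3.20 ± 0.59 (edgeR, adjusted p = 0.00105), and for Sesn1 -1.46 ± 0.24 (edgeR, adjusted p = 0.000307). The value for Phlda3 rests on the 4, 1, 1 and 1 reads of the engrafted controls, none of which reached the level of the low-count filter, and the gene entered this test through the host libraries. Without Phlda3, 1 of 9 targets had a higher and 1 a lower effect in engrafted cells. These 3 differences passed in every one of the 16 analyses that left out 1 library.

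The response of the other 7 targets was not shown to differ. Bax had a difference of 0.75 (95% interval 0.23 to 1.28, edgeR, adjusted p = 0.0999), Pmaip1 of 0.95 (0.20 to 1.69, adjusted p = 0.152), Bbc3 of 0.87 (0.01 to 1.73, adjusted p = 0.276) and Trp53inp1 of 0.84 (-0.28 to 1.95, adjusted p = 0.454). Those of Ccng1, Mdm2 and Gdf15 were 0.57, -0.32 and -1.43, all with intervals that spanned 0.

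Without LPS, engrafted cells and host microglia of the same 4 mice were compared, which sets graft-derived cells against irradiated resident cells. Engrafted cells had less Cdkn1a, Phlda3, Bax, Ccng1, Bbc3 and Trp53inp1 and more Sesn1 and Gdf15. Thus 6 of 10 targets were lower and 2 higher, while 13.7% of all 8042 genes tested were lower and 13.6% higher. Phlda3, 1 of the 6, passed the low-count filter through the host libraries alone, and without it 5 of 9 were lower and 2 higher. The median log2 fold change was -0.98 over these 9 and 0.02 over all genes, and 4 of the 5 lower targets and both higher ones also differed by over 2-fold. No overlap between libraries was seen for 5 targets that were lower and 1 that was higher, against 15.3% and 11.3% of all genes. These 5 include Phlda3, which was tested only because of its level in the host libraries.

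The host control levels of Cdkn1a, 1191 to 2042 CPM, lay above the engrafted range of 118 to 162 CPM with no overlap. The log2 fold change, engrafted against host, was -3.44 ± 0.16 (SE, n = 4 against 4, edgeR, adjusted p = 8.75e-15), or 10.9-fold lower. Phlda3 was 17.8-fold lower, with 7 reads in all over the 4 engrafted libraries against 191 over the host libraries, a log2 fold change of -4.15 ± 0.39 (edgeR, adjusted p = 5.50e-09). Its fold and its test thus rest on 1 to 4 reads in each engrafted control.

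The death effector Bax stood at 310.4, 352, 364 and 356 CPM in host controls, above every engrafted control (log2 fold change -0.98 ± 0.13, edgeR, adjusted p = 1.59e-06). Bbc3 was at 23.2, 27.0, 26.2 and 27.0 CPM in engrafted controls, which varied little and lay below the lowest host control of 59.0 CPM (log2 fold change -1.42 ± 0.20, edgeR, adjusted p = 4.51e-06). Ccng1 was at 61.5, 91.3, 84.5 and 53.1 CPM in host controls, again with no overlap (log2 fold change -1.47 ± 0.25, edgeR, adjusted p = 4.66e-05). The groups of Trp53inp1 overlapped, and its log2 fold change of -1.17 ± 0.38 (edgeR, adjusted p = 0.0240) passed in 4 of the 8 analyses that left out 1 library, where the adjusted p reached 0.0883 without host control mouse 5.

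Sesn1 ran against the other targets here as well, at 108, 123, 133 and 145 CPM in host controls, below every engrafted control (log2 fold change 1.45 ± 0.14, edgeR, adjusted p = 9.43e-09). Gdf15 was at 17.6, 12.6, 12.0 and 16.3 CPM in host controls and its call rested on the engrafted library of mouse 5, since the log2 fold change of 1.20 (edgeR, adjusted p = 0.0232) became 0.32 (adjusted p = 0.574) without it. The call of Gdf15 was also lost without host control mouse 6 or 7. Mdm2 was at 75.6 to 109 CPM in engrafted and 83.7 to 124 CPM in host controls, a log2 fold change of 0.00 (95% interval -0.32 to 0.32). Pmaip1 had a log2 fold change of 0.24 (-0.23 to 0.70).

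**Figure D3:**
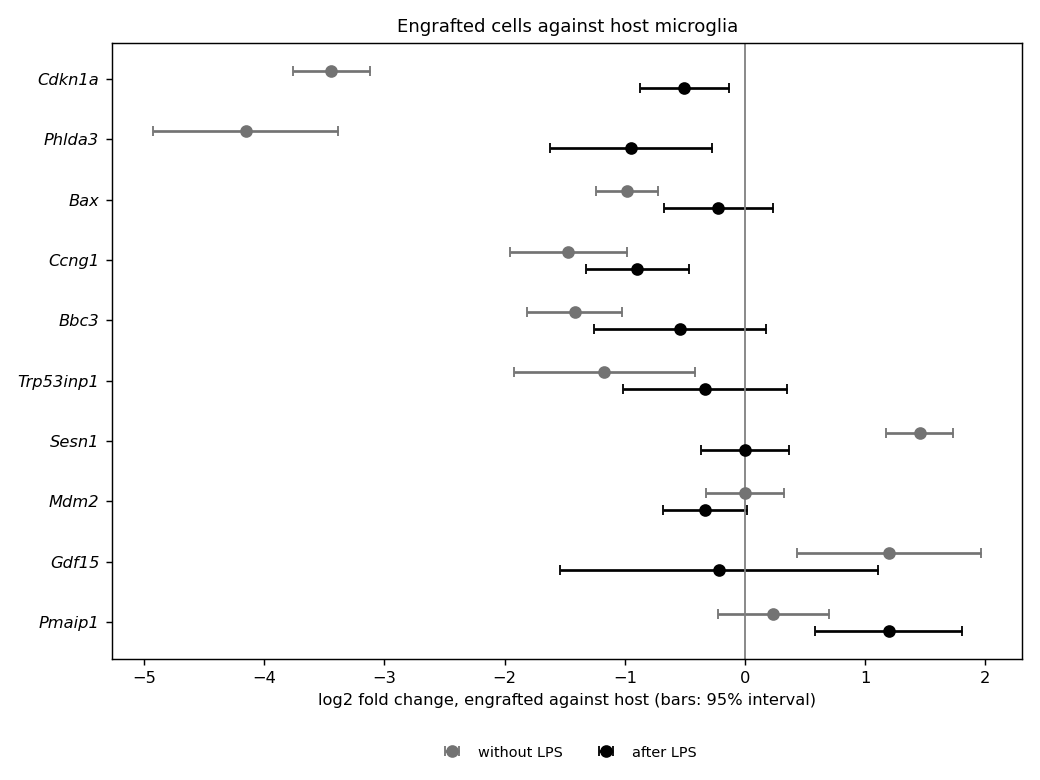
Log2 fold change of engrafted cells against host microglia for the 10 targets, without LPS (grey) and after LPS (black), with 95% intervals. Cdkn1a lies at -3.44 without LPS and -0.50 after LPS, and Sesn1 at 1.45 and 0.00.

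After LPS the 2 populations were compared again, in the 4 challenged mice. Only 1 target, Ccng1, was lower in engrafted cells and 1, Pmaip1, was higher, against 7.62% and 9.52% of all 7843 genes tested. The libraries did not overlap for 2 targets that were lower and 1 that was higher, against 10.5% and 10.1% of all genes. The log2 fold change of Ccng1 was -0.90 ± 0.22 (SE, n = 4 against 4, edgeR, adjusted p = 0.00777), with host libraries at 71.1, 93.7, 71.2 and 77.9 CPM, all above the engrafted ones. Pmaip1 stood at 45.9, 24.4, 39.0 and 56.1 CPM in engrafted cells, all above the host libraries, a log2 fold change of 1.20 ± 0.31 (edgeR, adjusted p = 0.0117).

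All engrafted levels of Cdkn1a after LPS, 847 to 1104 CPM, lay below the lowest host level of 1237 CPM. Its log2 fold change was -0.50 ± 0.19 (SE, n = 4 against 4, edgeR, adjusted p = 0.0817), which did not pass, although it passed in 3 of 15 alternatives. Phlda3 had a log2 fold change of -0.95 (95% interval -1.62 to -0.27, edgeR, adjusted p = 0.0714) and passed in 6 of 14 alternatives, among them the fit with the mouse as a block (adjusted p = 0.0396). Sesn1 stood at 126 to 142 CPM in engrafted cells and 102 to 169 CPM in host microglia, and its log2 fold change was 0.00 (-0.36 to 0.37). Bax, Bbc3, Trp53inp1, Mdm2 and Gdf15 had log2 fold changes of -0.54 to -0.22, with intervals that spanned 0. Gdf15 turned on the host library of mouse 2, without which its log2 fold change of -0.22 became 1.65 (edgeR, adjusted p = 0.0436).

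Ordered by mean level, the 4 groups stood in the same order for Cdkn1a and Phlda3. Cdkn1a rose from 145 ± 19.5 CPM in engrafted controls to 1005 ± 121 CPM in challenged engrafted cells, and stood at 1449 ± 269 CPM in challenged and 1648 ± 392 CPM in control host microglia (SD, n = 4 each). Phlda3 followed the same order with 2.29 ± 1.16, 17.4 ± 5.43, 32.7 ± 13.01 and 50.2 ± 12.5 CPM. For both genes neither the 2 host groups nor the 2 challenged groups passed the test. Bax went from 168 ± 14.6 through 332 ± 96.4 and 346 ± 24.2 to 393 ± 81.3 CPM for engrafted control, engrafted LPS, host control and host LPS. Of its tests between 2 groups, only those that involved the engrafted controls were passed, and its interaction test was not. Sesn1 had 337 ± 42.3 CPM in engrafted controls and means of 127 to 137 CPM in the other 3 groups, which did not differ by any of the tests run between them.

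Further genes known as p53 targets, a list of 34, were examined beside these 10. In engrafted cells 5 of 19 tested rose after LPS and 4 fell, and in host microglia 4 of 21 rose and 3 fell, with medians of -0.04 and -0.05 against -0.01 and 0.01 over all genes. Of all genes tested, 19.4% rose and 19.3% fell in engrafted cells and 19.2% rose and 20.5% fell in host microglia. Without LPS, 5 of 20 tested were higher and 4 lower in engrafted cells than in host microglia, against 13.6% and 13.7% of all genes. The median log2 fold change was -0.06 over these 20 and 0.02 over all genes, so that this list as a whole was not lower. After LPS, 3 of 22 were higher and 1 lower, against 9.52% and 7.62% of all genes. Ddit4, an inhibitor of mTORC1 that glucocorticoids also induce, rose in both populations, by a log2 fold change of 4.01 ± 0.36 in engrafted cells (edgeR, adjusted p = 3.18e-08) and 3.01 ± 0.22 in host microglia (adjusted p = 4.67e-10). Apaf1, the scaffold of the apoptosome, rose by 1.46 in engrafted cells and 1.00 in host microglia on the log2 scale. Sat1, which acetylates polyamines, fell by 1.03 and 0.78.

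Only Gadd45a and Pltp of this list responded differently in the 2 populations. That is 1 of 24 tested in each direction, against 2.97% and 2.90% of all 8847 genes tested. Gadd45a, a growth arrest gene of the DNA damage response, had means of 4.56 CPM in engrafted controls and 29.5 CPM in challenged engrafted cells. Its means were 17.1 CPM in host controls and 18.5 CPM in challenged host microglia. The engrafted controls were lowest, as for Cdkn1a, but the order of the other groups was not that of Cdkn1a, with challenged engrafted cells highest. The difference of its responses was 2.40 on the log2 scale (edgeR, adjusted p = 0.00919). This value rests on 1 to 8 reads in each engrafted control, 14 in all, below the level of the low-count filter. Gadd45a missed that filter in the LPS test of engrafted cells alone. Pltp, a phospholipid transfer protein, fell in engrafted cells from a mean of 256 to 86.8 CPM and was at 10.2 and 12.3 CPM in host controls and challenged host microglia, with a difference of -1.82 (edgeR, adjusted p = 0.0107).

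Trp53 itself and the genes that regulate it were examined next. Trp53 fell after LPS in both populations, by 0.91 on the log2 scale in engrafted cells (mean 29.7 to 15.6 CPM, edgeR, adjusted p = 0.0460) and by 1.20 in host microglia (mean 37.3 to 16.7 CPM, adjusted p = 0.00316). Mdm4, which restrains p53 together with MDM2, fell by 0.69 (edgeR, adjusted p = 0.00511) and 0.57 (adjusted p = 0.00940). Trp53bp1, a DNA damage repair factor, had log2 fold changes of -1.32 in engrafted cells (edgeR, adjusted p = 0.00333) and -0.62 in host microglia (adjusted p = 0.0516). Ppp1r13b, which encodes the p53 partner ASPP1, fell in both, by 0.82 (edgeR, adjusted p = 0.0428) and 1.07 (adjusted p = 0.00148). Trp53bp2, which encodes ASPP2, had log2 fold changes of 0.60 in engrafted cells (edgeR, adjusted p = 0.0642) and 1.05 in host microglia (adjusted p = 0.000443). Kat5, which encodes the acetyltransferase TIP60, had log2 fold changes of 0.73 (edgeR, adjusted p = 0.0347) and 0.13 (adjusted p = 0.663).

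Of this list of 24 regulators, 1 rose and 7 fell of 15 tested in engrafted cells, and 1 rose and 4 fell of 18 in host microglia, beside the shares of 19.4% and 19.3%, and of 19.2% and 20.5%, over all genes. Between engrafted cells and host microglia none of 17 tested differed without LPS, none of 15 after LPS and none of 19 in the interaction (edgeR). At an unadjusted p below 0.05 these counts were 1, 1 and 2, and DESeq2 gave 0 in each. Of all genes tested in edgeR, 13.6% were higher and 13.7% lower without LPS, and 9.52% and 7.62% after LPS. In the interaction 2.97% had a higher and 2.90% a lower LPS effect in engrafted cells. Cdkn2a, which encodes the MDM2 inhibitor ARF and the kinase inhibitor p16, was too low to be tested in these comparisons without and after LPS. It had 4 reads in all (0 to 4.03 CPM) in engrafted controls and 51 reads (5.86 to 18.5 CPM) in host controls, which did not overlap, and 4 reads against 36 reads after LPS, where the ranges did. Levels of mRNA say nothing of the amount or activity of p53 protein, which was not measured here.

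**Figure D4:**
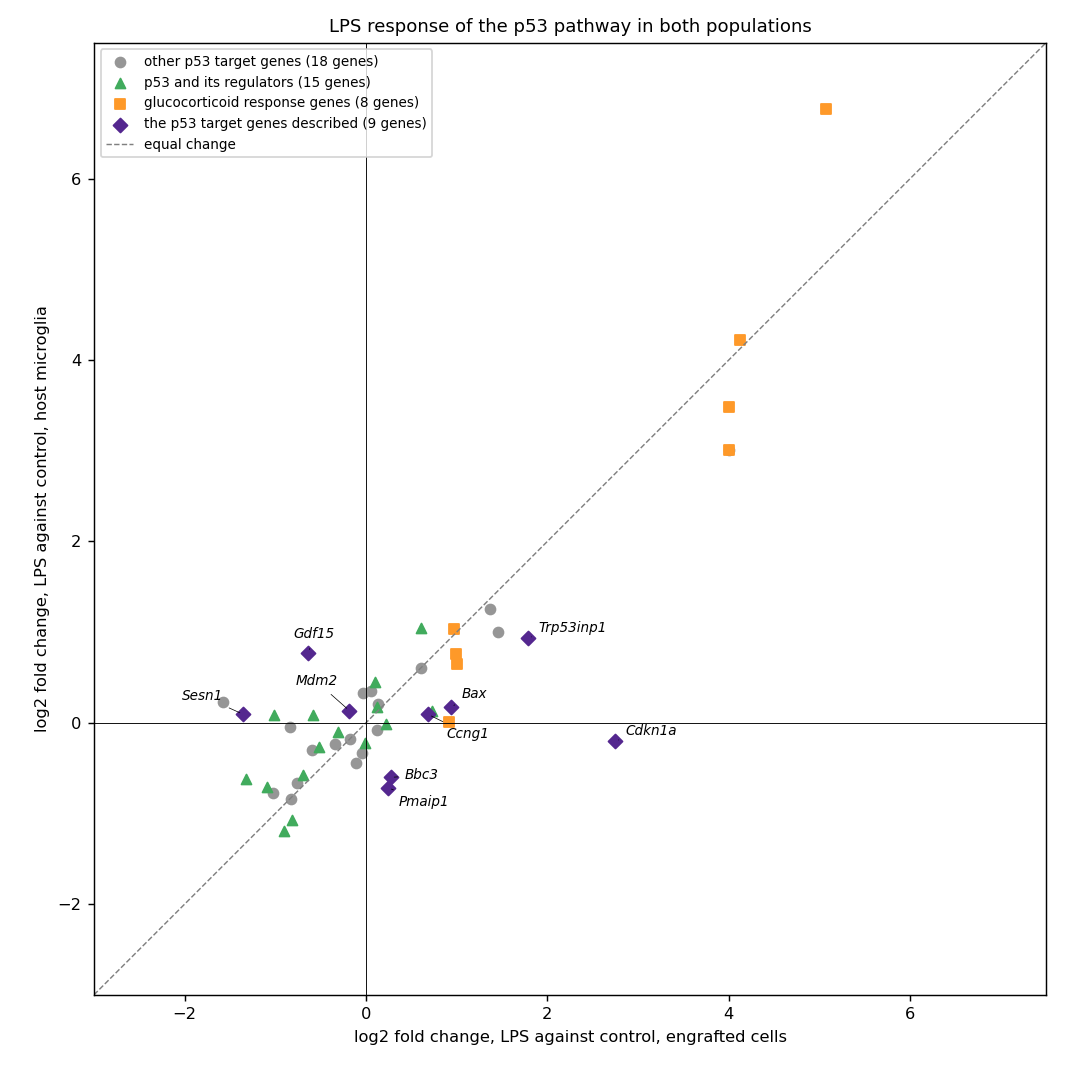
Log2 fold change of LPS against control in engrafted cells (horizontal) and host microglia (vertical) for genes tested in both: 9 of the targets described, 18 further p53 targets, 15 regulators and 8 glucocorticoid response genes; Ddit4 is in 2 lists. Cdkn1a lies at 2.75 and -0.20, to the right of the dashed line of equal change, and of the glucocorticoid response genes Klf9 lies at 4.12 and 4.22, Zbtb16 at 5.07 and 6.77 and Sgk1 at 0.91 and 0.01.

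Cdkn1a and Ddit4 are also known to respond to glucocorticoids, and genes of that response were raised in both populations. All 8 of the list rose in engrafted cells and 7 of 8 in host microglia, against 19.4% and 19.2% of all genes. Fkbp5, which encodes a chaperone of the glucocorticoid receptor, rose by a log2 fold change of 4.00 and 3.48, Klf9 by 4.12 and 4.22 and Zbtb16 by 5.07 and 6.77, and none of these 3 differed between the populations by the interaction test (edgeR, adjusted p = 0.284, 0.940 and 0.570). Sgk1, a kinase that glucocorticoids induce, was the 1 gene of 8 that differed, against 2.97% of all genes higher and 2.90% lower. It had means of 425 ± 78.7 CPM in engrafted controls, 823 ± 200 CPM in challenged engrafted cells, 1413 ± 188 CPM in host controls and 1435 ± 309 CPM in challenged host microglia (SD, n = 4 each). The LPS effect on the log2 scale was 0.91 in engrafted cells (edgeR, adjusted p = 0.00121) and 0.01 in host microglia (adjusted p = 0.969), and the difference was 0.90 ± 0.26 (adjusted p = 0.0377). Whether glucocorticoids had a part in the response of Cdkn1a was not tested.

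Genes downstream of or parallel to the targets were mostly too low to test. Of 18 cell cycle genes that p21 represses, 4 were tested in engrafted cells, where 1, the replication clamp Pcna, rose and none fell, and 5 in host microglia, where 2 fell, and none of 6 passed in the interaction (edgeR). DESeq2 called 0 of these genes in engrafted cells, 1 in host microglia and 0 in the interaction, where 1 had an unadjusted p below 0.05 in edgeR. Of all genes tested in edgeR, 19.4% rose and 19.3% fell in engrafted cells, and 19.2% rose and 20.5% fell in host microglia. In the interaction 2.97% had a higher and 2.90% a lower LPS effect in engrafted cells. Of 6 further inhibitors of cyclin-dependent kinases and Sestrins, only Cdkn1b, which encodes p27, could be tested in both populations. It fell by 1.08 on the log2 scale in engrafted cells (edgeR, adjusted p = 0.0216). In host microglia its log2 fold change of -0.72 did not pass (edgeR, adjusted p = 0.0615). Among 10 genes of the integrated stress response, which also induces Gdf15, 1 rose and 2 fell of 4 tested in engrafted cells. In host microglia 3 rose and 3 fell of 6, beside the same shares over all genes. Atf3 fell more in engrafted cells, by 2.11 against 1.03 on the log2 scale (interaction edgeR, adjusted p = 0.0212).

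The genes whose levels ran most like those of the called targets were sought among the 3788 genes whose mean level reached 50 CPM, as a description over 16 libraries that share their 4 groups and their depth. Cdkn1a was most like Oaf, Tspan4 and Plpp1, with Pearson's r of 0.937, 0.932 and 0.929. Sesn1 was most like Ankrd12, Ifnar1 and Xylt2, with r of 0.945, 0.911 and 0.876. Trp53inp1 was most like Got2, Zyg11b and Ctnnbip1, with r of 0.847, 0.847 and 0.843.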

How the data were processed

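The authors mapped reads of MARS-seq derived 3′ libraries to mm9 with HISAT (version 0.1.5 in the submitters' processing notes), kept unique alignments and counted exon reads per gene on the sense strand with HOMER. The deposited values are raw read counts without normalization for 24411 genes. Between 64.0 and 76.5% of mapped tags fell on genes. No removal of PCR duplicates is named, so the limit of 3 reads for a count of 0 covers counting error only.

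Counts were tested in R 4.3.3 with edgeR 4.0.16: low-count filter (minimum 10, total 15), TMM scaling and the quasi-likelihood test, adjusted over all genes tested after Benjamini and Hochberg. Host and engrafted libraries of a mouse come from the same animal. Their residuals, taken from the group means, correlated with r of 0.0284 to 0.351 over 8 mice, against -0.124 to 0.00872 with other mice. Centring on the group mean lowers the r with other mice where that within a mouse is positive, so the former is no independent baseline. The study's methods name no mouse term, and none was used in the main tests. Alternatives were the mouse as a replicate block, RLE factors, library totals, DESeq2 1.42.0, other filters, all 16 libraries in 1 fit and leaving out each library. Scripts were tested on simulated data. With 4 libraries against 4, each edgeR p-value sets a difference against the spread between libraries, estimated with information shared over genes. Where the populations were compared, libraries of the same mouse were treated as independent in the main tests.

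The targets and lists were chosen with earlier results of these data known. Named from the lists were at most 4 genes each, called (over 2-fold) in an LPS comparison or the interaction, with smallest adjusted p, plus Trp53 and Mdm4. Gadd45a, Pcna, Ccr2, Kat5, Cdkn2a and Sgk1 were named after their values were seen. 1 marker gene is not reported here.

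Summed markers of other cells were 194 to 1217 CPM (neutrophils), 9.00 to 43.8 (neurons), 11.5 to 28.7 (astrocytes), 160.2 to 169 (oligodendrocytes), 6.55 to 40.5 (endothelium), 1.01 to 15.2 (lymphocytes) and 7.05 to 2878 (red blood cells) in engrafted controls. In host controls they were 0 to 2.39, 11.2 to 157, 181 to 269, 155 to 218, 13.6 to 22.5, 1.94 to 8.17 and 1.60 to 512 CPM in the same order. After LPS they were 23.2 to 462, 5.61 to 26.8, 11.2 to 24.7, 86.6 to 88.5, 23.4 to 36.6, 0 to 28.0 and 2.60 to 4298 CPM in engrafted cells, and 9.66 to 15.95, 4.17 to 9.66, 148 to 217, 86.7 to 136, 6.88 to 22.9, 0 to 4.99 and 2.99 to 554 CPM in host microglia.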

Additional observations from a re-analysis of the deposited data

Results flagged for a closer look

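Of 40 sets of 4 libraries (10 targets in 4 groups), 4 held 1 library farther from the others than the 95% limit of Dixon's gap test, whereas chance gives about 1 in 20. In engrafted controls mouse 5 stood apart for 3 genes, with Phlda3 at 4.03 CPM against 1.64 to 1.80 in the others, Bax at 189 CPM against 158 to 162 and Gdf15 at 64.5 CPM against 11.5 to 20.2. This library was the deepest of its group. Without it the difference of Gdf15 between the populations was lost. The LPS effect on Phlda3 in engrafted cells could then be tested, with a log2 fold change of 3.11 (edgeR, adjusted p = 0.000880). That was not particular to mouse 5. Phlda3 was also tested and passed without control mouse 6, 7 or 8 or without challenged mouse 2, with log2 fold changes of 2.49 to 2.85. In challenged host microglia mouse 2 had Gdf15 at 72.8 CPM against 2.78 to 12.1 in the others.

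The LPS response differed between engrafted cells and host microglia by the interaction test for Cdkn1a, by 2.94 on the log2 scale, for Phlda3, by 3.20, and for Sesn1, by -1.46.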

How the results depend on the processing

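The log2 fold changes of the targets were recomputed in 769 alternative analyses of 49 tested pairs of gene and comparison. In 709 of them direction and side of the threshold were as reported, in 19 a call was lost, in 19 one was gained and in 22 the sign turned, never for a result that had passed.

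Requiring over 2-fold left 0 targets in either direction in host microglia after LPS and 0 lower after LPS. Without the low-count filter, 5 targets rose in engrafted cells, 2 rose and 2 fell in host microglia, 2 were lower after LPS and 2 had a lower log2 LPS effect in engrafted than in host cells by the interaction. With at least 10 reads in every library fewer targets could be tested: 0 fell in host microglia, 1 was higher and 3 lower without LPS, 0 were higher after LPS and 1 had a higher LPS effect in engrafted cells. With DESeq2, 0 fell in host microglia and 2 were lower after LPS. With all 16 libraries in 1 fit, 1 was higher without LPS and 3 lower after LPS. With library totals, which moved the median of all genes by -0.15 after LPS, 3 were lower there. With the mouse as a replicate block, 2 were lower after LPS (Phlda3 was added), and no other count of targets moved by over 1.5 times.

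Leaving out each library gave 3 to 5 targets that rose in engrafted cells, 0 to 1 that rose and 0 to 2 that fell in host microglia, 1 to 2 higher without LPS, and 1 to 2 lower and 1 to 2 higher after LPS. The sign turned for Mdm2 without LPS (0.0019 with RLE factors, 0.00058 with at least 10 reads, -0.089 to 0.088 leaving out libraries), and after LPS for Sesn1 (-0.15 with library totals, -0.0085 with no filter, -0.011 with all libraries, -0.042 with at least 10 reads, -0.11 to 0.11 leaving out libraries), Gdf15 (0.0098 with DESeq2, 0.20 with the replicate block, -0.55 to 1.65 leaving out libraries, where 1.65 passed at adjusted p = 0.0436 without host LPS mouse 2) and Trp53inp1 (-0.68 to 0.030). Leaving out libraries also turned Gdf15 in engrafted cells (-0.88 to 0.23), in host microglia (-1.09 to 1.12) and in the interaction (-1.76 to 0.46), and Ccng1 (-0.042 to 0.21) and Sesn1 (-0.0099 to 0.21) in host microglia.

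With at least 10 reads in every library, all genes that rose in engrafted cells went from 1477 to 965, those higher after LPS from 747 to 441 (1122 without the filter), those lower from 598 to 393, and those with a lower LPS effect in engrafted cells from 257 to 162, or 145 in the lowest analysis that left out a library. Depth limits Phlda3, Gdf15, Trp53inp1, Bbc3, Pmaip1 and Ccng1, which had under 20 reads in several libraries. The causes of these changes were not tested, other than fewer genes or libraries.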
